A study of Mus musculus with 30 samples.

Results

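Digit tips that had regenerated for 21 d after amputation were compared with digit tips at 14 d, across all genes measured by RNA-seq. The comparison uses every library labelled with one of these times, which gives 3 libraries at 21 d and 3 at 14 d of the 30 in the series. Each library came from the third digit of the right hindlimb of 1 mouse. The mice were adult C57Bl/6 males of 9 to 10 weeks. At most 33% of the distal phalanx, the last bone of the digit, had been removed, and the skin wound was left without sutures. Both groups share this treatment and differ in the 7 d of further healing. No library here came from an uncut digit of the same late date, and levels at 0 h come from tips collected at the time of amputation. The libraries hold the whole tip, so that fewer cells of a type and less RNA per cell cannot be told apart.

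The tip of a mouse digit can regrow bone, nail, nail bed and skin after amputation through its distal phalanx. The wound is first closed by epidermis and invaded by inflammatory cells, the bone stump is partly resorbed, and a mass of proliferating cells, the blastema, then forms new bone directly, without the cartilage model that builds the bone in the embryo. Late in the process, bone is remodelled, and nail and skin mature.

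Library totals were between 5698534 and 11558333 expected counts at 14 d, and between 9717613 and 16277816 at 21 d. The difference of the means, 3776000 counts, gave an exact two-sided permutation p of 0.2, where 0.1 is the smallest that 3 against 3 allows. A date in the sample titles falls in July for library 1 at 14 d and in the following December or January for the other 5, and the labels do not say what the date marks. Libraries 2 and 3 at 14 d share both a date and a number in their titles, libraries 2 and 3 at 21 d share a number, and libraries 1 and 2 at 21 d share a date. Library 1 at 14 d was also the shallowest. Its Pearson correlation with the other libraries at 14 d, on log2 CPM over all genes tested, was 0.951 to 0.955, and that between the other two, which share the date, was 0.985. Within 21 d the correlation was 0.955 to 0.975, and between the times it was 0.943 to 0.981. The ranges within and between the times overlapped. Defining genes of the labelled tissue were present in all 6 libraries, with 12786 to 20696 CPM of the bone collagen Col1a1, 3063 to 25764 CPM of the epidermal keratin Krt2 and 1058 to 7837 CPM of the nail keratin Krt83, and skeletal muscle genes summed to at most 9.67 CPM.

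No gene passed the test at 21 d against 14 d. The edgeR quasi-likelihood test covered 13793 genes, of which 0 (0%) had a Benjamini-Hochberg adjusted p under 0.05, and the lowest adjusted p was 0.526. At an unadjusted p under 0.05 there were 270 genes (1.96%), 118 higher (0.856%) and 152 lower (1.10%) at 21 d. The genes with the lowest p included immediate early genes such as Fos and the cartilage collagen Col2a1, which were higher at 21 d, and the MHC class II gene H2-Aa and the cell cycle gene Ccng1, which were lower. DESeq2, an alternative test, called 5 of 17162 genes (0.0291%), namely Gvin1, H2-Aa, Fos, Ccng1 and Col2a1. In the fit that gave 0 genes here, 60 genes (0.435%) passed at 14 d against 7 d, where the earlier group has 6 mice in place of 3, and the numbers of calls were not tested against each other. The values below therefore describe levels in the 6 libraries and are not calls, except where DESeq2 is named.

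The median standard error of a log2 fold change was 0.34. Among the 11078 genes whose mean reached 5 CPM (read counts scaled to library size after TMM normalization) at either time, the median 95% interval reached 0.61 on either side of the estimate on the log2 scale. All 3 libraries at 21 d were above all 3 at 14 d for 1174 genes (8.51%) and below them for 965 (7.00%). These shares are the background for the counts of genes whose groups did not overlap.

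**Figure D1:**
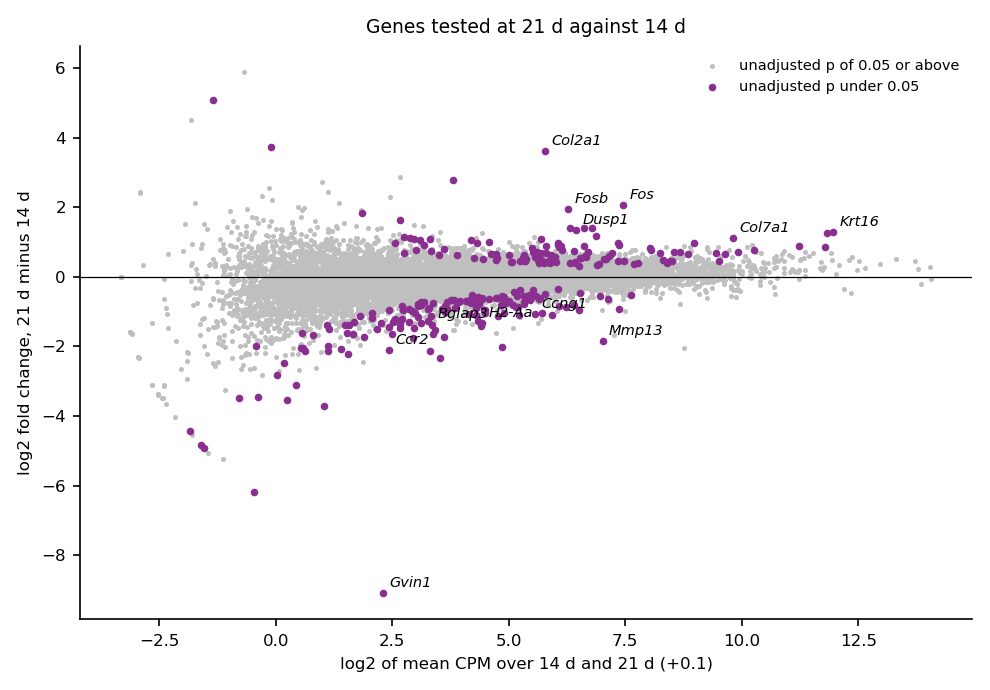
Log2 fold change at 21 d against 14 d (vertical axis) plotted on the log2 mean CPM of both times (horizontal axis) for the 13793 genes tested, with the 270 genes of an unadjusted p under 0.05 in purple. None had an adjusted p under 0.05, and the fold changes of genes with few counts spread most widely.

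Immediate early genes, which cells transcribe within minutes of a stimulus without new protein synthesis, had higher values at 21 d in most members, and none passed the edgeR test. Of 18 members tested, 6 had an unadjusted p under 0.05 and a higher level at 21 d, and 0 a lower one. In 7 members all 3 libraries at 21 d lay above all 3 at 14 d, as in 8.51% of all genes tested. The median log2 fold change was 0.53, against -0.004 over all genes tested. The count of 6 was 5 to 7 with 1 library left out.

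Fos encodes a subunit of the AP-1 transcription factor. Its level was 59.2, 41.8 and 101 CPM in the libraries at 14 d and 521, 185 and 144 CPM at 21 d. All libraries at 21 d were above those at 14 d, with library 1 at 21 d far above the rest. Its log2 fold change was 2.07 ± 0.47 (standard error), with an adjusted p of 0.527, and DESeq2 gave an adjusted p of 0.0318. Without library 1 at 21 d the log2 fold change was 1.27. Fosb, a gene of the same family, had 20.0, 31.3 and 43.4 CPM at 14 d and 199, 62.6 and 108 CPM at 21 d (log2 fold change 1.95, standard error 0.50, adjusted p = 1). Jun, the usual partner of Fos in AP-1, stood at 109, 110 and 111 CPM at 14 d and at 213, 156 and 277 CPM at 21 d (log2 fold change 0.96, standard error 0.28, adjusted p = 1). The 3 values of Jun at 14 d were nearly the same, while those at 21 d spread.

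Dusp1, a phosphatase that switches off MAP kinases, had 51.6, 34.6 and 61.9 CPM at 14 d and 113, 117 and 145 CPM at 21 d, and its log2 fold change was 1.34 ± 0.33 (standard error), with an adjusted p of 0.935. For this gene library 1 at 21 d was the lowest of its group, and without it the log2 fold change was 1.39. The zinc finger factor Egr1 had 81.6, 33.5 and 67.2 CPM at 14 d against 182, 120 and 179 CPM at 21 d. Ier2 had 68.5, 66.6 and 72.2 CPM against 130, 116 and 138 CPM. The adjusted p of both was 1, and they were named after their values were seen. Cyr61, a matrix protein whose gene responds to YAP and to serum, had 72.2, 38.6 and 51.2 CPM at 14 d and 155, 102 and 172 CPM at 21 d (log2 fold change 1.41, standard error 0.38, adjusted p = 1).

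Other members of the group did not separate the times. Junb stood at 70.6, 63.5 and 100 CPM at 14 d and at 125, 105 and 84.0 CPM at 21 d, and Klf4, the most abundant member, at 580, 1034 and 1022 against 1006, 981 and 1635 CPM. Tips at 0 h held more Fos, from 455 to 780 CPM, than any library at 14 d, where the highest was 101 CPM. Library 1 at 21 d, at 521 CPM, lay inside the range of 0 h, and the other two lay between the ranges of 14 d and 0 h. Summed over the 18 members, the libraries at 21 d held 2448 to 3421 CPM, those at 14 d 1559 to 2131 CPM and those at 0 h 3629 to 3893 CPM.

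The promoters of 3 of these genes and of 2 MHC class II genes are shown because both groups are known for control through short elements close to the start of transcription. Each window runs from 250 bases before the start to 50 after it, as given by RefSeq for GRCm38.p6, 5′ to 3′ on the strand of the gene. Capitals mark TGACG, a core of the cyclic AMP response element, and TGATTGG, an inverted CCAAT sequence with 2 flanking bases, on either strand.
Fos, chr12:85473640-85473939, strand +: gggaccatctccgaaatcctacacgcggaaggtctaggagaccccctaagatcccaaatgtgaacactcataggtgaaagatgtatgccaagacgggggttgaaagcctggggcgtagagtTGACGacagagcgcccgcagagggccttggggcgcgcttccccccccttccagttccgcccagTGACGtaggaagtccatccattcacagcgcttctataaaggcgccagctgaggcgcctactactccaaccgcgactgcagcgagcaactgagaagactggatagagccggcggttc
Fosb, chr7:19309996-19310295, strand -: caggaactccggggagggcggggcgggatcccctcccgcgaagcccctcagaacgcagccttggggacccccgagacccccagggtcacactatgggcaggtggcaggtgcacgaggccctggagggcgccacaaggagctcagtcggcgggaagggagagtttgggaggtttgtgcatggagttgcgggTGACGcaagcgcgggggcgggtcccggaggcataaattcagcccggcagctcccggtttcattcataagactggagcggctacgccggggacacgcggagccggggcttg
Dusp1, chr17:26508423-26508722, strand -: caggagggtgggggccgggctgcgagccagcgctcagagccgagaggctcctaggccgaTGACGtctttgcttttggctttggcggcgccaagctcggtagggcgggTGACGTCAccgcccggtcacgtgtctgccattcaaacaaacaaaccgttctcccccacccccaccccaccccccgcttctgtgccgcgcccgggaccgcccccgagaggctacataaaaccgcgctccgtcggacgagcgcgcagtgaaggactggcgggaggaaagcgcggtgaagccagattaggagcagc
H2-Aa, chr17:34287774-34288073, strand -: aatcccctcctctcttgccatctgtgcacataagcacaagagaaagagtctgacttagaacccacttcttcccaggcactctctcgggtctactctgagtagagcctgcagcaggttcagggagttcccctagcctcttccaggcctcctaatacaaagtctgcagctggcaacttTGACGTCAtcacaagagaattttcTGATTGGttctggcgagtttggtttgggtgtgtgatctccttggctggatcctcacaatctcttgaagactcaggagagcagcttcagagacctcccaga
H2-Eb1, chr17:34305617-34305916, strand +: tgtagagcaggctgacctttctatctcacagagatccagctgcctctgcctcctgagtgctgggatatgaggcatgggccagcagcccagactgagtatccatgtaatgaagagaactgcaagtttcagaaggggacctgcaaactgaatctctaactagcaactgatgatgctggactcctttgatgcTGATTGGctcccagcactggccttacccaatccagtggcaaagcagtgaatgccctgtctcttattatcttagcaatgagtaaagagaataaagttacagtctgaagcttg
The 5 letters TGACG were found in the windows of Fos, Fosb, Dusp1 and H2-Aa, and in 20.8% of the 32851 promoter windows of the table on either strand. In Fos they begin 129 and 66 bases before the start. In Dusp1 and H2-Aa a forward and a reverse match overlap in 1 palindrome. The 7 letters TGATTGG begin 50 bases before the start of H2-Aa and 61 before that of H2-Eb1, and 7.82% of all windows hold them. H2-Ab1 was not matched in the table. These are matches of letters and say nothing of binding in these digits.

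MHC class II molecules present peptides to helper T cells and are made by dendritic cells, macrophages, B cells and the Langerhans cells of the epidermis. They were read from a list of MHC class II and Langerhans cell genes, not of class II chains alone. It holds H2-Aa, H2-Ab1, H2-Eb1, Cd74, Ciita, Cd207, Epcam and Itgax. No member passed the edgeR test, and most had lower values at 21 d. Of 8 members tested, 5 had an unadjusted p under 0.05 with a lower level and 0 with a higher one. In 5, all libraries at 21 d lay below those at 14 d, as in 7.00% of all genes tested. The median log2 fold change was -1.03. Without the July library 5 members had an unadjusted p under 0.05, and without library 1 at 21 d or library 3 at 14 d 3 did.

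H2-Aa, the alpha chain of the I-A molecule, had 31.6, 29.3 and 30.9 CPM at 14 d and 10.1, 12.9 and 13.7 CPM at 21 d. Both sets of values were tight and did not overlap. The log2 fold change was -1.32 ± 0.27 (standard error), with an adjusted p of 0.526, and DESeq2 gave an adjusted p of 0.0142. Leaving out 1 library at a time and all other alternatives kept it between -1.48 and -1.22. H2-Ab1, the beta chain of the same molecule, had 26.3, 29.5 and 32.2 CPM at 14 d against 13.2, 13.2 and 19.6 CPM at 21 d (log2 fold change -0.94, standard error 0.28, adjusted p = 1). Cd74, the invariant chain that guards the peptide groove, had 35.5, 35.8 and 40.5 CPM against 13.5, 18.7 and 19.5 CPM (log2 fold change -1.11, standard error 0.41, adjusted p = 1).

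H2-Eb1 overlapped between the times, with 21.4, 26.7 and 29.2 CPM at 14 d and 8.80, 11.1 and 25.1 CPM at 21 d. Library 3 at 21 d, at 25.1 CPM, lay within the range of 14 d. Cd207 (langerin), which marks Langerhans cells, was low, with 2.65, 5.66 and 4.07 CPM against 0.370, 1.99 and 2.39 CPM. The mean of H2-Aa at 0 h was 14.2 ± 1.29 CPM (SD, n = 3), and at 7 d it was 28.3 ± 7.44 CPM (SD, n = 6). For this gene the values at 21 d lay near those at 0 h and the values at 14 d near those at 7 d. The list as a whole differed. Its summed level was 176 to 191 CPM at 14 d, below the 208 to 301 CPM at 7 d. At 21 d it was 101, 106 and 147 CPM, with libraries 1 and 2 below the 141 to 160 CPM at 0 h.

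**Figure D2:**
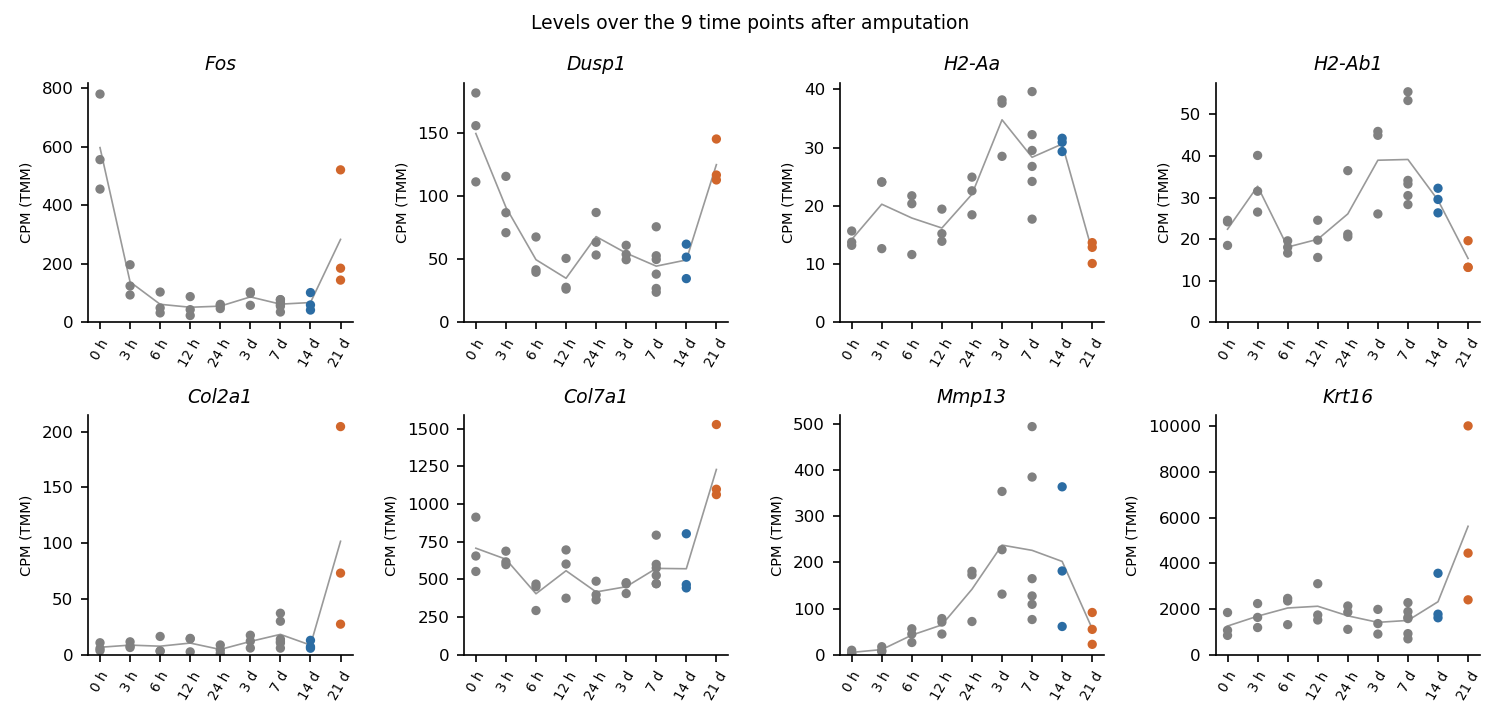
CPM (vertical axes, linear from 0) of 8 genes at the 9 time points after amputation (horizontal axes), with 1 point per library, the mean as a line, 14 d in blue and 21 d in orange. Fos and Dusp1 were higher and H2-Aa and H2-Ab1 lower in all 3 libraries at 21 d than at 14 d, and for Fos, Col2a1 and Krt16 library 1 at 21 d lay far above the others.

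Markers of the other cells that carry MHC class II were lower in part. Of 16 macrophage and monocyte genes tested, 5 lay below all libraries at 14 d and 0 above. Over all genes tested these shares were 7.00% and 8.51%. In the list 2 had an unadjusted p under 0.05 (1 without library 3 at 14 d), and the median log2 fold change was -0.49. Ccr2, the chemokine receptor of monocytes that enter tissue from blood, had 8.48, 9.47 and 7.97 CPM at 14 d and 2.78, 1.74 and 1.48 CPM at 21 d (log2 fold change -2.10, standard error 0.73, adjusted p = 1). Cd14 had 8.65, 7.00 and 18.3 CPM against 6.76, 5.92 and 2.51 CPM. Csf1r, the receptor for the macrophage growth factor, had 40.3, 41.8 and 49.0 CPM against 36.2, 27.4 and 14.6 CPM. Summed over the list, levels overlapped, with 413 to 531 CPM at 14 d and 302 to 513 CPM at 21 d. The part of these cells in the MHC class II values was not tested.

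Several genes of cartilage and of the collagen matrix had higher values at 21 d without passing the edgeR test, and the size of the difference depended on library 1 at 21 d. Of 15 cartilage genes tested, 3 had an unadjusted p under 0.05 with a higher level and 0 with a lower one. In 5, all libraries at 21 d lay above those at 14 d, as in 8.51% of all genes tested. The median log2 fold change was 0.46, with 10 members above 0 and 5 below. Col2a1, the main collagen of cartilage (GRCm38 chr15:97975602-98004695, minus strand), had 12.7, 5.66 and 6.93 CPM at 14 d and 204, 73.0 and 27.2 CPM at 21 d. The groups did not overlap, yet the libraries at 21 d differed among themselves by more than those at 14 d did. Its log2 fold change of 3.61 was the largest among the 12 higher genes named by rule (standard error 0.79, adjusted p = 0.526), and the 95% interval ran from 1.99 to 5.23. DESeq2 gave an adjusted p of 0.047. Without library 1 at 21 d the log2 fold change was 2.57.

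Col9a2, which coats the type II collagen fibril, had 2.47, 4.43 and 3.47 CPM at 14 d and 45.4, 13.7 and 13.2 CPM at 21 d (log2 fold change 2.79, standard error 0.80, adjusted p = 1). Acan, the large proteoglycan that holds water in cartilage, had 118, 75.1 and 152 CPM against 269, 208 and 173 CPM. Col11a1, the most abundant gene of the list, had 480, 343 and 488 CPM against 706, 550 and 514 CPM. All 3 genes were above the 14 d range in each library at 21 d, and library 1 was the highest in each. Without that library the median log2 fold change of the list was 0.15, and 2 members had an unadjusted p under 0.05. Col9a3 overlapped between the times, with 3.18, 4.73 and 4.07 CPM at 14 d and 10.5, 10.7 and 3.99 CPM at 21 d.

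Col7a1 forms the anchoring fibrils that tie the basement membrane of the epidermis to the dermis. It had 802, 442 and 465 CPM at 14 d and 1527, 1098 and 1062 CPM at 21 d (log2 fold change 1.1, standard error 0.26, adjusted p = 0.566). The July library was the highest at 14 d, and without it the log2 fold change was 1.43. Col16a1 had 320, 299 and 398 CPM against 860, 646 and 500 CPM. Col6a1, a chain of the beaded filaments around cells, had 991, 726 and 1018 CPM against 2071, 1422 and 1143 CPM, and its partner Col6a2 744, 647 and 813 CPM against 1574, 1118 and 944 CPM. The adjusted p of these 3 genes was 1.

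Among all 38 collagen genes tested, a set taken after the values were seen, 10 had an unadjusted p under 0.05 with a higher level and 1, Col22a1, with a lower one. All libraries at 14 d lay under those at 21 d in 14 and over them in 0, where 8.51% and 7.00% of all genes tested did. Without library 1 at 21 d the collagen counts were 5 higher and 0 lower, with 14 above, where 12.1% of all genes tested lay above. Without library 2 at 14 d they were also 5 and 0. Without library 3 at 21 d they were 12 and 3. The list of 24 collagen and assembly genes had 3 higher (1 without library 2 at 14 d or library 1 at 21 d) and 0 lower, with a median log2 fold change of 0.07, which was -0.05 without library 1 at 21 d and -0.07 on the log2(TPM + 1) scale. Col1a1, the main collagen of bone and skin, overlapped fully, with 18885, 15791 and 17832 CPM at 14 d and 20696, 17134 and 12786 CPM at 21 d, and the sign of its log2 fold change, -0.05, was turned by 2 alternatives. Col3a1 had 8202, 6989 and 9879 CPM against 16636, 11286 and 8181 CPM.

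**Figure D3:**
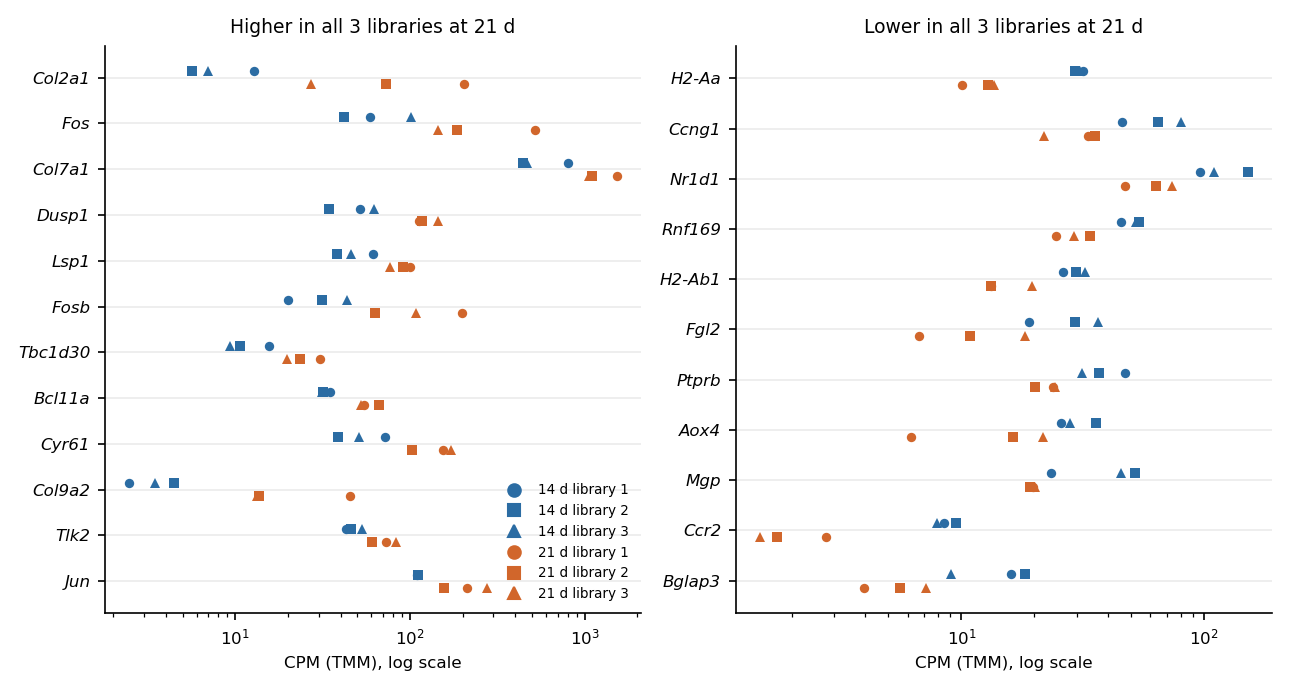
CPM on a log scale (horizontal axes) in each of the 6 libraries for the genes of lowest p whose mean reached 5 CPM in the higher group without overlap, 12 higher at 21 d on the left and 11 lower on the right, since Gvin1, with 0 counts at 21 d, is left out. Circles, squares and triangles stand for libraries 1, 2 and 3, and none of these genes had an adjusted p under 0.05 by edgeR.

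In bone, several genes of mature osteoblasts and of mineral had lower values at 21 d without passing the test, while the main matrix genes overlapped. Of 19 osteoblast and bone matrix genes tested, 4 had an unadjusted p under 0.05 with a lower level and 0 with a higher one. The median log2 fold change was -0.13. The 4 were Phospho1, Mmp13, and Bglap and Bglap2, which share much of their sequence. Mmp13 overlapped between the times and is also counted among the matrix metalloproteinases. The count was 1 without the July library, library 2 at 14 d or library 1 at 21 d, and 2 without library 2 or library 3 at 21 d. Osteocalcin, the most specific protein of bone-forming osteoblasts, is encoded by the neighbouring genes Bglap and Bglap2 and the related Bglap3 on chromosome 3. In their transcripts, 52.7% of the 65-base stretches of Bglap, the read length used, and 80.3% of those of Bglap2 recur in the other copies, so that the split of reads between them is uncertain. The sum of the 3 genes was 78.4, 70.2 and 34.3 CPM at 14 d and 12.7, 19.7 and 29.4 CPM at 21 d. The groups came close but did not overlap. The sum, chosen after the values were seen, had a log2 fold change of -1.56 ± 0.39 (standard error), with an adjusted p of 0.845.

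Bglap3, the copy that shares least, with 4.73% of its stretches, had 16.1, 18.3 and 9.10 CPM at 14 d and 3.98, 5.60 and 7.18 CPM at 21 d (log2 fold change -1.37, standard error 0.48, adjusted p = 1). Phospho1, a phosphatase that starts mineral in matrix vesicles, had 58.8, 55.6 and 47.2 CPM against 31.9, 35.8 and 34.9 CPM. Dmp1, a matrix protein of osteocytes, had 47.7, 60.6 and 77.1 CPM against 45.0, 25.8 and 41.7 CPM. Among 9 osteocyte genes, 5 log2 fold changes lay above 0 and 4 below, with 0 at an unadjusted p under 0.05. Their median was 0.05, and it was -0.49 without library 3 at 21 d, where 2 were lower at that p. Dlx5, a homeobox factor of early osteoblasts, had higher values at 21 d, with 56.7, 57.0 and 43.8 CPM at 14 d and 71.3, 70.5 and 73.8 CPM at 21 d. The mean sum of the osteocalcin genes was 33.1 ± 3.94 CPM at 0 h (SD, n = 3) and 6.2 ± 3.33 CPM at 7 d (SD, n = 6). Mgp, an inhibitor of mineral in cartilage and vessels, had 23.3, 51.9 and 45.2 CPM at 14 d and 19.7, 19.1 and 20.2 CPM at 21 d (log2 fold change -1.03, standard error 0.36, adjusted p = 1).

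Enzymes that break down matrix varied widely within 14 d. Of 17 matrix metalloproteinases and inhibitors tested, 2 had an unadjusted p under 0.05 with a lower level and 0 with a higher one. The count was 0 without library 3 at 14 d, 4 without library 1 at 21 d and 3 without library 2 at 21 d. Mmp13, the collagenase of osteoblasts and cartilage, had 60.9, 182 and 364 CPM at 14 d and 91.3, 54.6 and 22.1 CPM at 21 d (log2 fold change -1.85, standard error 0.65, adjusted p = 1). The July library held the lowest value at 14 d, inside the range of 21 d. Without it the log2 fold change was -2.29. Mmp3, a stromelysin of fibroblasts, had 14.5, 51.5 and 72.2 CPM against 16.4, 11.1 and 6.73 CPM, and Mmp9, the gelatinase of osteoclasts and neutrophils, 305, 503 and 735 CPM against 473, 313 and 104 CPM. For Mmp13, Mmp3 and Mmp9 the July library was the lowest at 14 d, and library 3 was the lowest at 21 d. Among 16 osteoclast genes, 0 had an unadjusted p under 0.05 and the median log2 fold change was -0.21.

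Keratins of wounded and thickened epidermis were highest in library 1 at 21 d. Of 14 basal and wound keratinocyte genes tested, 3 had an unadjusted p under 0.05 with a higher level, and without library 1 at 21 d or library 2 at 14 d 0 did, against 5 without library 3 at 21 d. Krt16, induced in epidermis after wounding, had 3559, 1610 and 1768 CPM at 14 d and 10015, 4442 and 2396 CPM at 21 d (log2 fold change 1.28, standard error 0.47, adjusted p = 1). The July library lay inside the range of 21 d. Krt6a and Krt6b, its partners, share 35.9% and 39.9% of their 65-base stretches, and their sum was 6415, 3477 and 3985 CPM against 16930, 7927 and 4111 CPM. Krt14, the keratin of basal cells, had 4942, 4826 and 5031 CPM against 8464, 6278 and 5674 CPM, with no overlap and an adjusted p of 1.

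Krt2, a keratin of the upper layers of the epidermis, had 15768, 15808 and 15994 CPM at 14 d and 3063, 12446 and 25764 CPM at 21 d. The 3 libraries at 14 d were nearly equal, and those at 21 d lay on both sides of them. The sum of the 24 epidermal differentiation genes was also lowest in library 1 and highest in library 3 at 21 d, with 26433, 60183 and 94097 CPM, against 52334 to 61461 CPM at 14 d. The collagen and assembly sum ran the other way at 21 d, with 32086, 22447 and 16688 CPM, against 14012 to 19441 CPM at 14 d. These sums moved in opposite directions between the libraries at 21 d, and their part in the comparison was not tested. Hard keratins of nail and hair had a median log2 fold change of 0.69 over 12 genes, with 1 of them, Krt35, at an unadjusted p under 0.05. Both values depended on single libraries. Without the July library 7 of the 12 lay above both other libraries at 14 d, where 14.5% of all genes tested did, and the median was 1.38. In that setting 6 of the 12 were higher at an unadjusted p under 0.05. Without library 1 at 21 d 0 were, with a median of 0.12, and without library 2 or library 3 at 14 d 0 were, with medians of 0.24 and 0.55. Krt83, the most abundant, had 5122, 1058 and 2658 CPM against 7837, 3454 and 2862 CPM, and its log2 fold change of 0.68 was 1.34 without the July library, 0.25 without library 2 at 14 d and 0.08 without library 1 at 21 d.

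**Figure D4:**
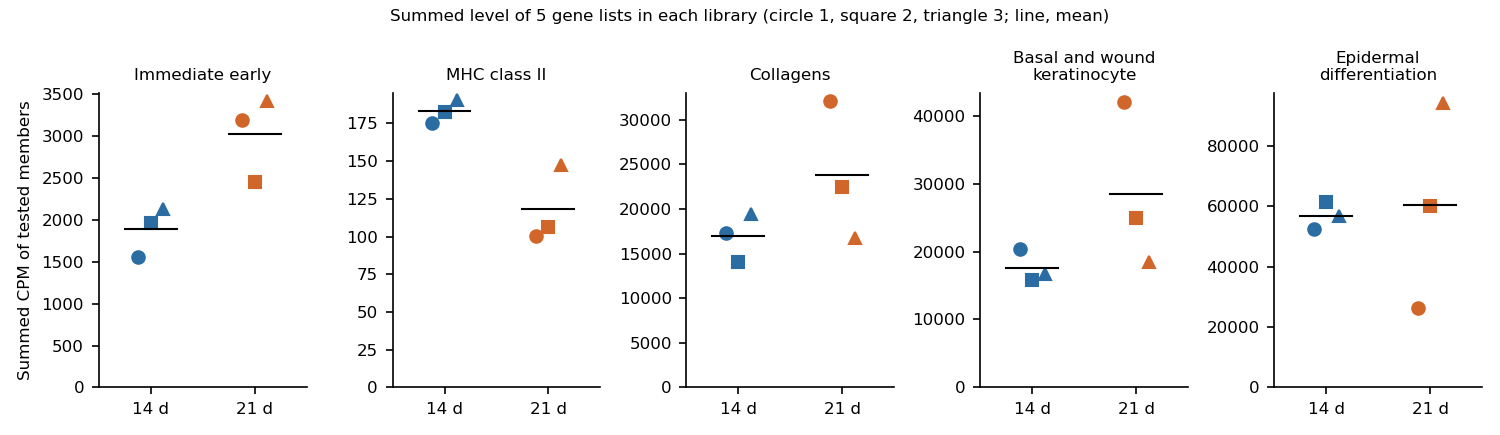
Summed CPM of the tested members of 5 gene lists (vertical axes, linear from 0) in each library at 14 d and 21 d, with libraries 1, 2 and 3 as circles, squares and triangles and the mean as a line. The sums of the immediate early list and of the MHC class II and Langerhans list did not overlap between the times. At 21 d library 1 had the highest collagen and keratinocyte sums and the lowest epidermal differentiation sum.

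Cell cycle genes were close at both times. Of 24 mitosis genes tested, 3 had an unadjusted p under 0.05 with a lower level, the cyclins Ccnb2 and Ccna2 and the kinesin Kif20a, and the median log2 fold change was -0.12. The count of 3 was 1 without the July library or library 1 at 21 d and 0 without library 3 at 21 d. Ccnb2 had 27.2, 18.8 and 22.4 CPM at 14 d and 12.3, 18.8 and 8.89 CPM at 21 d. Mki67, the marker of cycling cells and the most abundant member, overlapped, with 334, 254 and 252 CPM against 244, 279 and 311 CPM. Its log2 fold change was -0.01, with a sign that 3 alternatives turned. None of 20 DNA replication genes had an unadjusted p under 0.05. Ccng1, a cyclin whose gene is a target of p53, had 45.7, 64.7 and 80.4 CPM at 14 d and 33.3, 35.4 and 21.9 CPM at 21 d. All libraries at 21 d were below those at 14 d, with a log2 fold change of -1.07 ± 0.24 (standard error), with an adjusted p of 0.526 and an adjusted p of 0.047 by DESeq2.

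Of 19 Wnt pathway genes tested, 1 had an unadjusted p under 0.05 with a higher level and 2 with a lower one. The first count was 2 without the July library or library 3 at 21 d, and the second was 1 without library 3 at 14 d or library 1 at 21 d. In the list 6 lay above and 1 below all libraries at 14 d, where 8.51% and 7.00% of all genes tested did. Wnt4, a ligand made by epidermis and mesenchyme, had 113, 110 and 111 CPM at 14 d and 167, 154 and 157 CPM at 21 d. Both groups were tight, and the log2 fold change was 0.52 ± 0.16 (standard error), with an adjusted p of 1. Wif1, a secreted inhibitor that binds Wnt ligands, had 66.7, 94.9 and 98.6 CPM against 39.8, 48.8 and 56.2 CPM. Sfrp4, another secreted inhibitor, had 7.59, 17.5 and 22.0 CPM against 2.96, 8.04 and 5.47 CPM. Dkk3, of the Dickkopf family, went the other way, with 217, 141 and 180 CPM against 301, 236 and 247 CPM. Among 20 BMP pathway genes, 0 had an unadjusted p under 0.05, with a median log2 fold change of 0.04.

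Several vessel markers had slightly lower values at 21 d, and none passed the test. Of 13 endothelial genes tested, 5 lay below all libraries at 14 d and 0 above. Over all genes tested these shares were 7.00% and 8.51%. In the list 1 had an unadjusted p under 0.05 (0 to 2 with 1 library left out), and the median log2 fold change was -0.32. Vwf, the adhesive protein stored in endothelial cells, had 40.8, 42.8 and 45.0 CPM against 25.6, 24.7 and 38.2 CPM. Ptprb, a phosphatase of endothelial cells, had 47.1, 36.7 and 31.4 CPM at 14 d and 23.8, 20.1 and 24.3 CPM at 21 d (log2 fold change -0.75, standard error 0.25, adjusted p = 1). Pecam1, the most abundant marker of the list, overlapped, with 64.5, 62.8 and 57.3 CPM against 58.3, 51.6 and 60.5 CPM.

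The other genes of lowest p, all with an adjusted p of at least 0.992, did not share a list. Higher in all 3 libraries at 21 d were Lsp1, an actin-binding protein of leukocytes, from 38.4 to 61.1 CPM at 14 d and from 76.5 to 101 CPM at 21 d, and Bcl11a, a zinc finger repressor, from 31.5 to 34.8 and from 52.1 to 66.5 CPM. Tbc1d30, a GTPase-activating protein, ran from 9.27 to 15.5 CPM and from 19.7 to 30.7 CPM, and Tlk2, a kinase of chromatin assembly, from 42.7 to 52.8 and from 60.9 to 83.4 CPM. Lower in all 3 were Nr1d1, a repressor of the circadian clock, with 96.2, 151 and 110 CPM against 47.2, 63.3 and 73.6 CPM, and Rnf169, a ubiquitin ligase of DNA repair, from 45.4 to 54.0 and from 24.6 to 34.0 CPM. Fgl2, a secreted prothrombinase of macrophages and other cells, ran from 19.1 to 36.5 CPM and from 6.67 to 18.4 CPM. Aox4, an aldehyde oxidase, ran from 25.8 to 35.8 CPM and from 6.20 to 21.7 CPM. For Nr1d1 the activator that opposes it, Arntl, had 48.2, 36.4 and 31.9 CPM at 14 d and 56.8, 61.8 and 49.2 CPM at 21 d. The hour of day of collection is not given in the sources used here.

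Gvin1, a large interferon-inducible GTPase, was listed at 69, 113 and 58 counts at 14 d and at 0 in all 3 libraries at 21 d, at least 35.5-fold lower against a floor of 3 counts per library. Its neighbour Gm4070 (GRCm38 chr7:105895139-105953967) was listed at 0, 0 and 58 counts at 14 d and at 83, 108 and 109 at 21 d. Of the 65-base stretches of Gvin1 transcripts (chr7:106156556-106215326), 97.8% are also found in those of Gm4070. The sum of both was 69, 113 and 116 counts at 14 d and 83, 108 and 109 at 21 d, and its log2 fold change, chosen after the values were seen, was -0.33 (standard error 0.39, adjusted p = 1). Over the 30 libraries Gvin1 was at 0 in 9 and Gm4070 in 5, and in 0 libraries were both at 0. The level of either gene alone is uncertain, and so is the DESeq2 call of Gvin1.

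**Figure D5:**
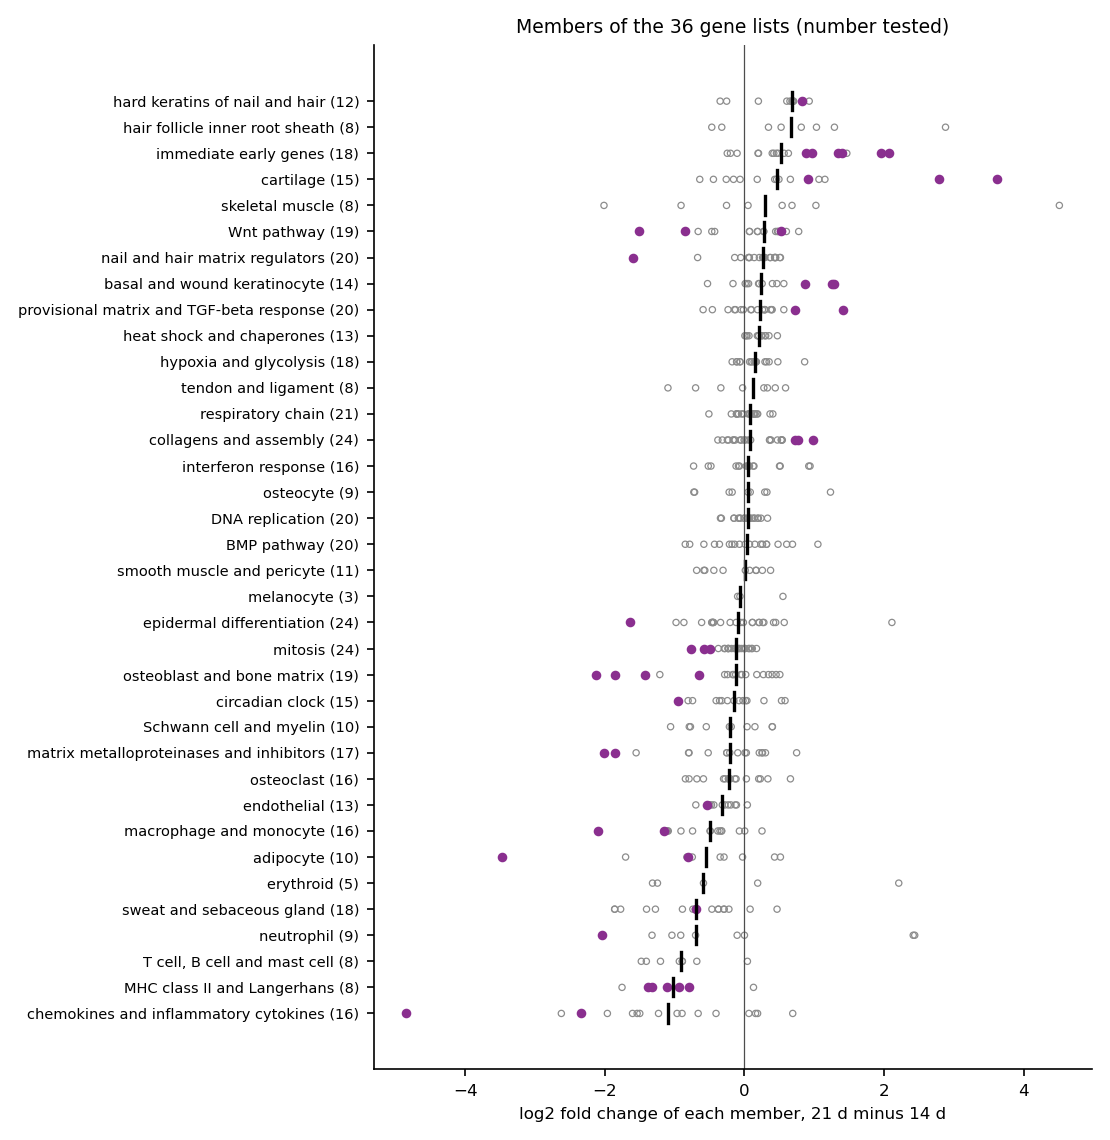
Log2 fold change at 21 d against 14 d (horizontal axis) of every tested member of 36 gene lists, ordered by their median (black bar), with members of an unadjusted p under 0.05 filled. Of the immediate early genes 15 of 18 lie to the right of 0 and of the MHC class II and Langerhans list 7 of 8 to the left. No member of any list had an adjusted p under 0.05.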

How the data were processed

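RNA of the digit tips was converted to poly(A)-selected LM-Seq libraries and read as single 65-base ends. Per the authors, Bowtie v0.12.8 aligned the reads to mouse genes of Ensembl v75, allowing 2 mismatches and up to 200 hits per read, and per the labels RSEM 1.2.3 and CASAVA 1.8.2 were used. The expected counts deposited by the authors are RSEM estimates without normalization, in which reads that fit several genes are divided between them. The TPM deposited by the authors are relative to all genes of a library. Their averages per time point were not used.

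Expected counts were rounded to whole numbers. All 30 libraries entered 1 fit in edgeR 4.0.16 (R 4.3.3) with TMM, its low-count filter by time point and no covariate, which kept 13793 of 20321 genes, and 21 d was contrasted with 14 d by the quasi-likelihood test. P-values were adjusted by Benjamini-Hochberg over all genes tested, at 0.05. Groups came from the time point in the sample labels. The exact permutation test of library totals was two-sided.

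The comparison and its 36 gene lists were chosen with earlier results of these data known. Named genes are up to 12 per direction with an adjusted p under 0.05, no overlap and a higher group of at least 5 CPM, filled by lowest p since none passed, then up to 4 members of lowest p and the most abundant member of each list, of which the text gives those it discusses. Members beyond these, among them Egr1, Ier2, Junb, Cd207, Csf1r, Col22a1 and Dlx5, were named after their values were seen.

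Alternatives were DESeq2 1.42.0 (its size factors and its test), other count filters, a threshold of 0.01, the 6 libraries alone, campaign (July to August or November to January date) as a covariate, removal of the July library, limma 3.58.1 on log2(TPM + 1) and log2(TPM + 0.1), and each library left out. Sums of near copies, a fit with a tag of the titles as a block and list counts with each library left out were added after the data were seen. Scripts were tested on simulated data. Promoters are from RefSeq (GRCm38.p6) and coordinates and transcripts from GENCODE M21 (GRCm38), the build of mm10. A floor of 3 counts per library was used, which covers counting error only, since copies made by PCR are not independent molecules, while standard errors and 95% intervals come from the edgeR fit and include the spread between libraries. No pair of libraries at the same time was a repeat, the chi-square divided by its degrees of freedom being 13.2 to 94.7. Plots were drawn with matplotlib 3.10.9 in Python 3.11.15.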

Additional observations from a re-analysis of the deposited data

How the results depend on the processing

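The count of 0 genes at an adjusted p under 0.05 held under every alternative except the DESeq2 test, which called 5 genes, 3 of them in the gene lists (H2-Aa, Fos and Col2a1). Over the edgeR and limma alternatives the lowest adjusted p of any gene was 0.183. The 270 genes at an unadjusted p under 0.05 became 1001 with the 6 libraries alone and 1216 with the 5 libraries of December and January, and 168 to 295 with 1 library left out, the lowest being without library 1 at 21 d. Genes above at 21 d without overlap, 1174, became 2051 without the July library, 2002 with the other 5 alone and 377 on the TPM scale, and 1574 to 2051 with 1 library left out. Those below, 965, became 2158, 2094 and 2102, and 1542 to 2158. With fewer libraries, groups overlap less often by construction. The log2(TPM + 1) scale moved the median of all genes by -0.12 and log2(TPM + 0.1) by -0.14, and of the genes at an unadjusted p under 0.05 the higher share was 18.7% and 17.9%, against 43.7% in edgeR and 31.1% without library 2 at 14 d. The 24 genes of lowest p kept their direction in all alternatives. They were chosen for groups that did not overlap, so leaving out 1 library left little room for a turn. Mki67, Col1a1 and Krt2 were not chosen in this way. Mki67 turned to 0.13 without the July library and with the other 5 alone (-0.12 to 0.13 with 1 library left out), Col1a1 to 0.041 with campaign as a covariate (-0.24 to 0.093) and Krt2 to 0.26 without library 1 at 21 d (-1.05 to 0.26), and the cause was not tested. The labels give no replicate number, but the titles hold a tag that recurs once at each time, and the labels do not say what it marks. With this tag as a replicate block in a fit of the 6 libraries alone, chosen after seeing the data, 0 genes had an adjusted p under 0.05 and 957 an unadjusted one. The deviations of same-tag libraries from their group means correlated at -0.09 to 0.11, and those of libraries with different tags at -0.25 to 0.22. So few libraries cannot decide whether the tag marks a pairing, and the main fit did not use it. List counts at an unadjusted p under 0.05 are small numbers, and most moved by over 1.5 times with 1 library left out.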

Other observations

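Several lists with few values past the test held further levels. In nerve, Schwann cell and myelin genes had 0 of 10 members at an unadjusted p under 0.05 and a median log2 fold change of -0.20. Adipocyte genes had 2 of 10, both lower, and a median of -0.55. Without library 1 at 21 d 0 were lower and the median was -0.11, without the July library or library 2 at 21 d 1 was, and without library 3 at 21 d 4 were. Without library 2 at 14 d 2 were lower and 1 higher, and the median was 0.002. Fabp4, the lipid carrier of adipocytes and capillaries, was at 64.1, 35.6 and 30.4 CPM at 14 d and 15.4, 26.6 and 31.9 CPM at 21 d, and its log2 fold change of -0.81 was -0.43 without the July library. Sweat and sebaceous gland genes had 1 of 18, with a median of -0.69. In this list 3 lay below and 0 above all libraries at 14 d, where 7.00% and 8.51% of all genes tested did. Of their log2 fold changes 16 were below 0 and 2 above. The count of 1 was 0 without library 2 or 3 at 14 d or library 1 or 2 at 21 d, and 2 without library 3 at 21 d. Mgst1, a detoxifying enzyme, was among the lower members, with 15.4, 24.2 and 22.6 CPM against 10.2, 13.3 and 14.9 CPM. Kit, a receptor of mast cells and melanocytes, stood at 40.1, 41.2 and 28.6 CPM against 2.22, 18.7 and 38.5 CPM, so that the libraries at 21 d differed most.

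Inflammatory transcripts were uneven between libraries. Chemokines and cytokines had 2 of 16 members at an unadjusted p under 0.05, both lower, and a median of -1.10. The count was 0 without library 3 at either time and 4 without library 2 at either time. Cxcl5, which attracts neutrophils, was at 0, 24.0 and 32.7 CPM at 14 d and at 9.35, 1.54 and 0.342 CPM at 21 d, with the July library at 0. Among 9 neutrophil genes, S100a9, a calcium-binding protein of neutrophils and wounded epidermis, had 50.3, 87.2 and 73.8 CPM against 57.5, 26.1 and 0.684 CPM (adjusted p = 1). Heat shock and chaperone genes had 13 of 13 log2 fold changes above 0 but 0 at an unadjusted p under 0.05, with a median of 0.20. Respiratory chain genes had 6 of 21 members above and 0 below all libraries at 14 d, where 8.51% and 7.00% of all genes did. Their median was 0.08, with 0 at an unadjusted p under 0.05. On the log2(TPM + 1) scale 2 lay above and 4 below, with a median of -0.06, where 2.66% and 14.8% of all genes did. Interferon, hypoxia, osteocyte, tendon, smooth muscle, skeletal muscle, erythroid, melanocyte, lymphocyte and mast cell, and inner root sheath genes had 0 members at an unadjusted p under 0.05. Of 20 genes of the provisional matrix and the TGF-beta response, 2 were higher at an unadjusted p under 0.05, Cyr61 and the thrombospondin Thbs2. Thbs2 overlapped between the times, with 386, 226 and 316 CPM at 14 d and 645, 565 and 325 CPM at 21 d. The median of this list was 0.22. Without library 1 at 21 d it was 0.06, with 1 member higher and 2 lower. On the log2(TPM + 1) scale it was 0.04, with 1 higher and 0 lower. Further lists with 1 lower member each and 0 higher were the neutrophil genes, the 15 circadian clock genes (Nr1d1), the 20 nail and hair matrix regulators and the 24 epidermal differentiation genes (Sprr2d). With 1 library left out the lower counts were 0 to 3, 1 to 4, 0 to 1 and 0 to 3, in this order. Without the July library the clock and the epidermal differentiation lists also had 1 higher each, and without library 2 at 14 d the clock list had 1. Skeletal muscle genes summed to 5.65 to 9.67 CPM at 14 d and 7.78 to 9.12 CPM at 21 d.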
